A study of Mus musculus with 12 samples.

Results

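Matrix metalloproteinases (MMPs), their tissue inhibitors (TIMPs) and the ADAM and ADAMTS proteases were followed across 6 groups of mouse retinas injected with buffer or with the excitotoxin NMDA. Genes were taken by name, as Mmp, Timp, Adam or Adamts plus a number, with 1 trailing letter allowed. Of 55487 genes in the expression table, 80 carried such a name (23 Mmp, 4 Timp, 34 Adam and 19 Adamts genes). A gene was kept when its mean exceeded 1 FPKM in at least 1 group, where FPKM counts fragments scaled by transcript length and by library size. This left 33 members, made up of 12 Mmp, 3 Timp, 11 Adam and 7 Adamts genes, and 24 of them exceeded the limit in all 6 groups. Adam19, Adamts7, Mmp8 and Mmp19 passed it in 1 group alone, so that a difference between their groups was partly set by the choice. The other 47 genes stayed below the limit, and 14 of these were listed at 0 in every library. The 47 included Timp4, whose highest group mean was 0.145 FPKM and which was listed at 0 in 5 libraries. At the edge of the limit stood Adamts4 on the inside, with a highest group mean of 1.16 FPKM, and Mmp3 on the outside, with 0.945 FPKM.

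Each group was a genotype combined with an injection into the vitreous, either 1 µL of PBS or 1 µL of 40 mM NMDA (40 nmol), and held 2 libraries of polyadenylated RNA, 12 in all. The genotypes were wild-type C57BL/6J mice (WT), mice infected by intravitreal AAV2.7m8 with a short hairpin RNA against Pax6 driven by the U6 promoter together with GFP (shPax6), and mice with a germline deletion of Jnk3, the kinase gene also named Mapk10 (Jnk3-/-, JNK3-KO). NMDA opens glutamate receptors and kills retinal ganglion cells, which makes the injection a model of excitotoxic injury in glaucoma. Each library pooled the RNA of more than 3 retinas. No library with a scrambled hairpin was analysed here, so virus infection and loss of Pax6 cannot be told apart. The mice that received the hairpin were 2 months old, and ages of the other groups were not given for these libraries. The labels do not say whether the libraries of a group came from separate animals, and the p-values below measure the spread between these libraries.

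MMPs are zinc proteases that cut collagens, laminins, growth factors and receptors, and TIMPs bind to their active site and block them. ADAM proteases sit in the cell membrane and release the outer part of other membrane proteins, whereas a branch of the ADAM family expressed in neurons has lost the catalytic site and serves as a receptor for secreted LGI proteins at synapses. ADAMTS proteases are secreted and trim proteoglycans and procollagens. In the injured retina these families are known from leukocyte entry, glial scarring, breakdown of the matrix around ganglion cells and vessel leakage.

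The libraries differed in several ways that touch every result below. The sum of all FPKM values was 805627 and 820180 in the WT NMDA libraries and 541210 to 576922 in the other 10. Pax6 stood at 173 and 177 FPKM in WT PBS, 55.4 and 53.8 in WT NMDA, 94.6 and 92.8 in shPax6 PBS, 67.5 and 58.7 in shPax6 NMDA, 187 and 191 in JNK3-KO PBS, and 129 and 138 in JNK3-KO NMDA. It was thus lower in shPax6 PBS than in WT PBS, and lower again in the NMDA libraries of WT. For Mapk10 the values were 42.8 and 50.7 FPKM in WT PBS, 8.98 and 6.00 in WT NMDA, 20.9 and 21.3 in shPax6 PBS, 16.2 and 8.85 in shPax6 NMDA, 9.47 and 8.75 in JNK3-KO PBS, and 6.65 and 13.8 in JNK3-KO NMDA, so it was lower in JNK3-KO PBS than in WT PBS, while the NMDA libraries overlapped between genotypes. The 5 markers of rods, the most abundant retinal cells, summed to between 16991 and 29253 FPKM in every library. Markers of neutrophils and gliosis were present under PBS as well: the 6 neutrophil markers summed to 212 to 235 FPKM in WT PBS, 155 to 169 in JNK3-KO PBS and 5.16 to 6.09 in shPax6 PBS. After NMDA they summed to 1948 to 1985 FPKM in WT, 66.4 to 73.0 in shPax6 and 13.1 to 13.9 in JNK3-KO. S100a8 and S100a9 made up most of the neutrophil sum in WT NMDA, and the 2 receptors of the list did not follow it there: the log2 difference in WT was -0.26 ± 0.23 SE, adjusted p = 0.375 for Csf3r and -0.00 ± 0.25 SE, adjusted p = 1 for Cxcr2. In whole retina, fewer cells of a type and less RNA per cell cannot be told apart.

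The promoters of the 3 members with the largest responses to NMDA were looked up for orientation, and they are shown as the 250 bases before the annotated transcription start. The sequences are those of the RefSeq table for GRCm38.p6, in which 21 of the 33 members had an entry, and all 4 windows lie on the + strand. Gene starts given with the values below come from GENCODE and can differ from these starts by some bases. Mmp12 has 2 annotated starts, and the window of its transcript 202 holds the only motif match within the printed bases, set in capitals.
Timp1, chrX:20869916-20870165: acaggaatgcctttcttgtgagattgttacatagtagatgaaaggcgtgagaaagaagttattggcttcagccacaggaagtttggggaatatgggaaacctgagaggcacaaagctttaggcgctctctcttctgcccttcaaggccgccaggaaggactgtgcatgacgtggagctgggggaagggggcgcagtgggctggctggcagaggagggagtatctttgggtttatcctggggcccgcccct
Mmp12-203, chr9:7344147-7344396: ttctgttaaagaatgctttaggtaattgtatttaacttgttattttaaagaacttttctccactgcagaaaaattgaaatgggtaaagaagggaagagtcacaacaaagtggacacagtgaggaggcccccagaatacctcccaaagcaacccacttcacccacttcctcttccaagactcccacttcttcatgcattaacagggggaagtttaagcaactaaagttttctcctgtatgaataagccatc
Mmp12-202, chr9:7347124-7347373: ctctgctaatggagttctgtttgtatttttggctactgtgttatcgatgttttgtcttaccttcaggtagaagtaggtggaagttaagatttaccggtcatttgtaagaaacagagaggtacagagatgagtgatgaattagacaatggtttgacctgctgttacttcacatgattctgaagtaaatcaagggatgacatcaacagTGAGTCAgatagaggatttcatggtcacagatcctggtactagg
Mmp8, chr9:7558179-7558428: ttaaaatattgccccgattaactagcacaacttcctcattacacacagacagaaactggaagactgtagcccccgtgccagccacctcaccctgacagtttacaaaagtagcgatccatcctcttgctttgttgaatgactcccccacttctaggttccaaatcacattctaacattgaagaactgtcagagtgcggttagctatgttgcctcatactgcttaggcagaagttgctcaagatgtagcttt

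Windows of 300 bases, reaching 50 bases past the start, were searched on both strands for 4 motifs of factors that act downstream of stress kinases and cytokines. The AP-1 site TGANTCA, bound by JUN and FOS proteins, occurred in 7.81% of all 32851 windows and in 2 of the 21 members, Mmp12 (44 bases before the start, in capitals above) and Adam19 (131 bases before). The variant TGAGTAA occurred in 2.68% of windows and in Timp1 among the members, 27 bases after the start and so outside the bases printed. The STAT motif TTCNNNGAA occurred in 8.3% of windows and in Mmp23 alone, and a motif of NF-kB, named here without its letters, in 0.411% of windows and in none of the members. GC content was 54.4% for Timp1, 40.0% and 39.6% for the windows of Mmp12-203 and Mmp12-202, and 44.8% for Mmp8. These matches describe letters in a window, and binding was not measured here.

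The first question was how the members respond to NMDA in each genotype. A gene was called changed when limma gave a Benjamini-Hochberg adjusted p under 0.05 over the 16471 genes tested and an absolute log2 difference above 1, computed on log2(FPKM + 0.1), a scale that understates the change of genes with low levels. Differences are given with the standard error (SE) of the fit, and each group had 2 libraries. In WT retinas, 17 of the 33 members were called, 5 higher and 12 lower after NMDA, which is 51.5% of the members against 35.1% of all genes (14.2% higher and 20.9% lower). The median log2 difference of the members was -0.56 against -0.09 for all genes. In shPax6 retinas, 8 members were called, 7 higher and 1 lower (24.2% against 13.6% of all genes, 8.64% higher and 4.94% lower), and the median was 0.55 against 0.10. In JNK3-KO retinas, 4 members were called, 1 higher and 3 lower (12.1% against 2.65% of all genes, 0.777% higher and 1.87% lower), and the median was -0.08 against -0.01. In total 25 members were called in at least 1 response, and Mmp17 alone in all 3. The group with the highest mean was shPax6 NMDA for 13 members, WT PBS for 10, WT NMDA for 6, JNK3-KO PBS for 3 and JNK3-KO NMDA for 1. Neither these counts nor that of 25 were made over all genes, so they describe the members alone.

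**Figure D1:**
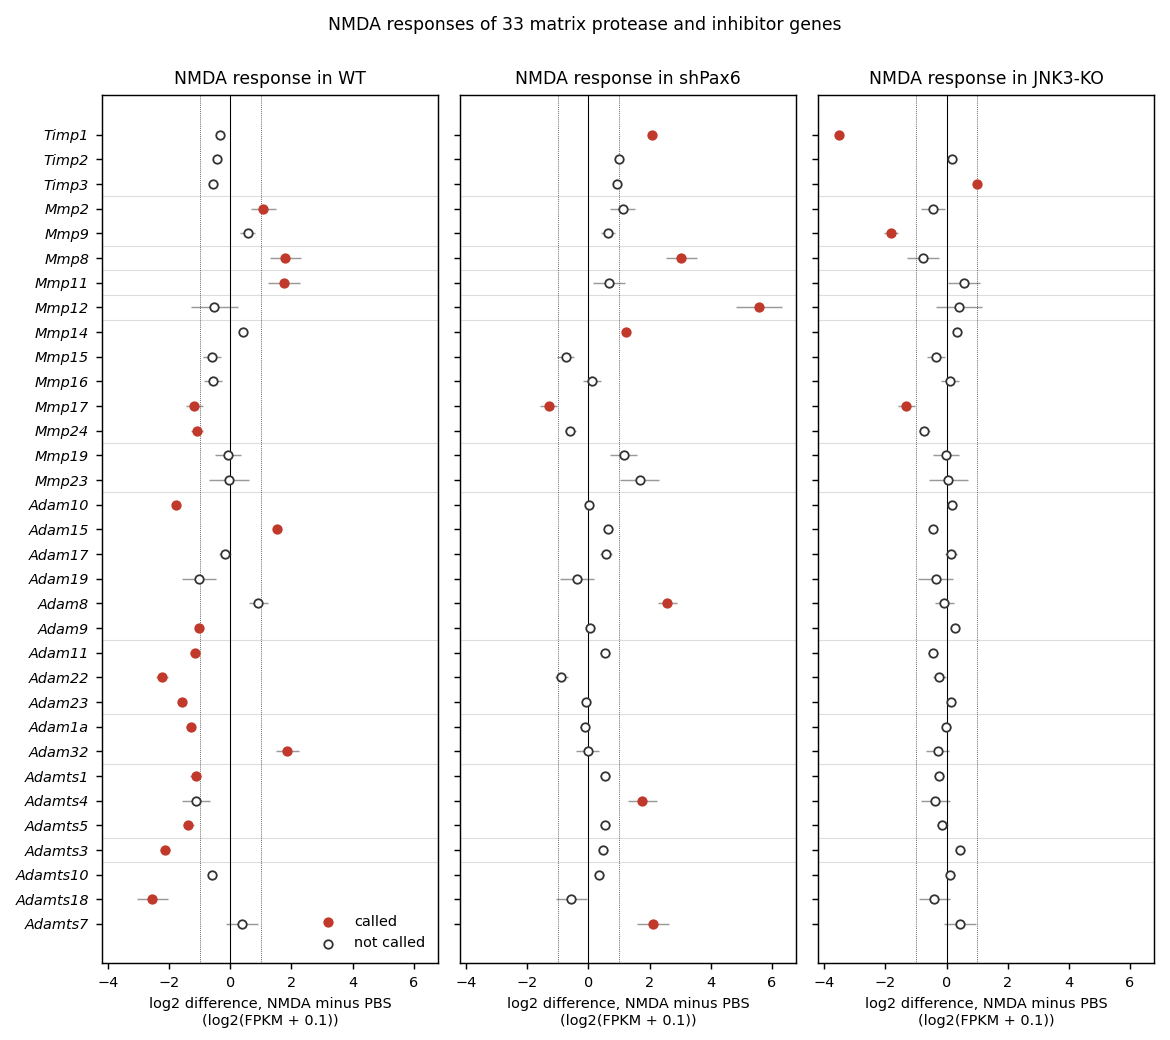
Log2 difference between NMDA and PBS for the 33 members (rows, by class) in WT, shPax6 and JNK3-KO retinas, with bars for the standard error of the limma fit, filled points for called members and dotted lines at the limit of 1. Lower values prevailed in WT (12 of 17 calls), higher values in shPax6 (7 of 8 calls), and Timp1 stood apart in JNK3-KO at -3.52.

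The split into higher and lower in WT depended on how levels were scaled. On TPM, which fixes the total of each library, 1 member was called higher and 19 lower. Of all genes, 5.52% were then called higher and 35.7% lower, and their median moved to -0.66. After quantile normalization the counts were 6 and 8, against 13.4% and 16.7% of all genes. After removal of the trend with transcript length, described below, they were 4 and 3, against 6.73% and 11.3% of all genes. In shPax6 the split was 5 higher and 2 lower after quantile normalization, against 6.38% and 6.8% of all genes. In JNK3-KO it was 0 and 3 after the length correction, against 0.717% and 1.71% of all genes.

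Among the inhibitors, Timp1 showed opposite responses in shPax6 and JNK3-KO. Timp1 (chrX:20870166-20874735, + strand), a secreted inhibitor induced in reactive glia and by inflammatory cytokines, measured 178 and 182 FPKM in WT PBS, 145 and 142 in WT NMDA, 36.7 and 31.0 in shPax6 PBS, 137 and 152 in shPax6 NMDA, 211 and 211 in JNK3-KO PBS, and 18.2 and 18.4 in JNK3-KO NMDA. Levels were low in shPax6 PBS and JNK3-KO NMDA and high in the other 4 groups, with no overlap between those sets of libraries. Timp1 rose in shPax6 after NMDA (log2 difference 2.09 ± 0.08 SE, adjusted p = 5.61e-07), and fell in JNK3-KO (log2 difference -3.52 ± 0.08 SE, adjusted p = 8.8e-08). In WT the log2 difference was -0.32 ± 0.08 SE, adjusted p = 0.00709, within the fold limit. The responses differed between WT and shPax6 (log2 difference -2.42 ± 0.12 SE, adjusted p = 1.7e-06) and between WT and JNK3-KO (log2 difference 3.19 ± 0.12 SE, adjusted p = 3.35e-07), both as WT minus the other. After the length correction the WT value was -1.40 and passed both limits.

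The low levels of Timp1 stood beside low neutrophil markers. The neutrophil sum was lowest in shPax6 PBS (5.16 to 6.09 FPKM) and JNK3-KO NMDA (13.1 to 13.9), the groups with low Timp1, and each of S100a8, S100a9, Retnlg, Csf3r and Cxcr2 was lower in these groups than in the other 4. Timp1 did not scale with this sum elsewhere, since shPax6 NMDA (66.4 to 73.0) and WT NMDA (1948 to 1985) had close Timp1 levels. Summed FPKM of Gfap, Lcn2, Serpina3n and Edn2, the 4 gliosis markers, was 1089.7 to 1128 in WT PBS, 1180.2 to 1233 in WT NMDA, 834 to 859 in shPax6 PBS, 2709 to 2720.2 in shPax6 NMDA, 866 to 900.4 in JNK3-KO PBS and 338 to 348 in JNK3-KO NMDA. Lcn2 made up most of this sum outside JNK3-KO NMDA. Lcn2 was lowest in JNK3-KO NMDA, as was Timp1, and next lowest in shPax6 PBS, whereas Gfap was lowest in shPax6 PBS and Edn2 in WT PBS. No listed marker of any cell type was at 0 in every library, and the part of these cells in the Timp1 level was not tested.

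Timp2 and Timp3 were highest in shPax6 NMDA. Timp2 (chr11:118301069-118355740, - strand), which also helps MMP14 to activate MMP2, measured 30.3 and 30.0 FPKM in WT PBS, 20.0 and 25.0 in WT NMDA, 22.6 and 27.6 in shPax6 PBS, 53.0 and 46.3 in shPax6 NMDA, 28.2 and 27.6 in JNK3-KO PBS, and 32.8 and 31.1 in JNK3-KO NMDA. Its shPax6 NMDA libraries lay above all others, and the response there, 0.99 ± 0.13 SE, adjusted p = 0.000487, fell just short of the fold limit. Timp3 (chr10:86300372-86349506, + strand), an inhibitor bound to the matrix and mutated in Sorsby fundus dystrophy, measured 16.7 and 17.7 FPKM in WT PBS, 11.1 and 12.4 in WT NMDA, 20.7 and 20.0 in shPax6 PBS, 39.8 and 38.5 in shPax6 NMDA, 14.8 and 15.1 in JNK3-KO PBS, and 29.7 and 30.7 in JNK3-KO NMDA. The libraries of each NMDA group lay apart from the PBS libraries of the same genotype, lower in WT and higher in shPax6 and JNK3-KO. Timp3 rose in JNK3-KO (log2 difference 1.01 ± 0.08 SE, adjusted p = 0.000189), was at 0.94 ± 0.08 SE, adjusted p = 5.42e-05 in shPax6 and at -0.55 ± 0.08 SE, adjusted p = 0.000378 in WT. The response of Timp3 in WT differed from that in shPax6 (log2 difference -1.49 ± 0.12 SE, adjusted p = 1.77e-05) and from that in JNK3-KO (log2 difference -1.56 ± 0.12 SE, adjusted p = 7.91e-06), and for Timp2 the WT value differed from shPax6 (log2 difference -1.42 ± 0.18 SE, adjusted p = 0.000237). The Timp3 call in JNK3-KO sat at the fold limit and was lost without JNK3-KO PBS replicate 1 (0.99) or JNK3-KO NMDA replicate 2 (0.98).

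**Figure D2:**
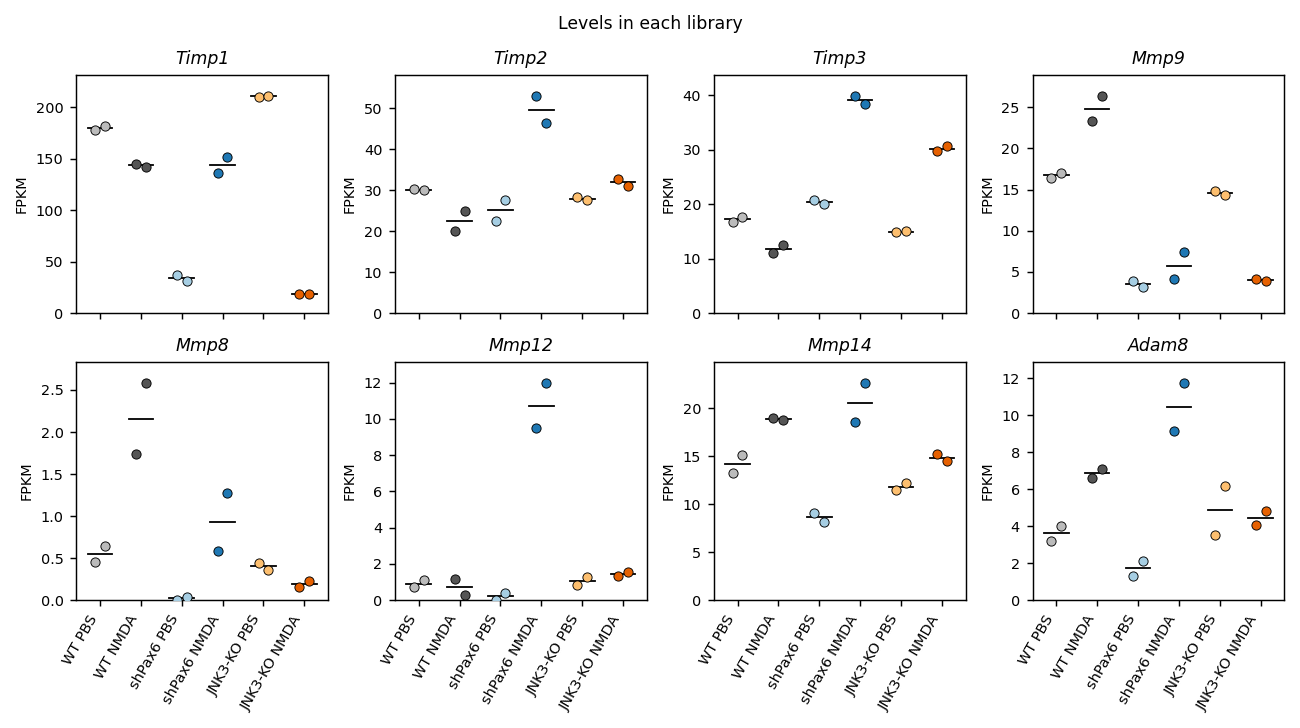
FPKM in each of the 12 libraries for 8 members, with points for libraries and bars for the mean of the 2 libraries per group. Timp1 was at or under 36.7 FPKM in shPax6 PBS and JNK3-KO NMDA and at least 137 FPKM elsewhere, and Mmp12 exceeded 9 FPKM in shPax6 NMDA alone.

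The gelatinases, which cut denatured collagen and the type IV collagen of basement membranes, split by genotype. Mmp9 (chr2:164940780-164955850, + strand), stored in neutrophil granules and made by glia and macrophages, measured 16.4 and 17.1 FPKM in WT PBS, 23.3 and 26.3 in WT NMDA, 3.89 and 3.19 in shPax6 PBS, 4.12 and 7.40 in shPax6 NMDA, 14.8 and 14.4 in JNK3-KO PBS, and 4.18 and 3.90 in JNK3-KO NMDA. The PBS libraries of WT and JNK3-KO lay above both shPax6 groups and JNK3-KO NMDA, and WT NMDA was highest. Mmp9 fell in JNK3-KO after NMDA (log2 difference -1.83 ± 0.23 SE, adjusted p = 0.00179). The log2 differences in WT, 0.57 ± 0.23 SE, adjusted p = 0.0636, and in shPax6, 0.63 ± 0.23 SE, adjusted p = 0.0708, did not pass the test. WT and JNK3-KO responses differed (log2 difference 2.39 ± 0.33 SE, adjusted p = 0.00028). In the same groups the neutrophil sum moved from 155 to 169 to 13.1 to 13.9 FPKM in JNK3-KO and from 212 to 235 to 1948 to 1985 FPKM in WT, and its part in the Mmp9 level was not tested.

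Mmp2, the gelatinase of fibroblasts and glia, measured 2.46 and 1.62 FPKM in WT PBS, 5.49 and 3.45 in WT NMDA, 1.91 and 1.26 in shPax6 PBS, 4.61 and 2.66 in shPax6 NMDA, 4.51 and 2.50 in JNK3-KO PBS, and 2.48 and 2.42 in JNK3-KO NMDA. NMDA libraries lay above PBS libraries in WT and shPax6 and below them in JNK3-KO. Replicates of a group lay far apart, except in JNK3-KO NMDA. Mmp2 rose in WT (log2 difference 1.09 ± 0.40 SE, adjusted p = 0.0416), a call that was lost without WT PBS replicate 1 (1.37, adjusted p = 0.0545), WT PBS replicate 2 (0.80) or WT NMDA replicate 1 (0.76). In shPax6 the log2 difference was 1.12 ± 0.40 SE, adjusted p = 0.0635.

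The collagenase and the elastase of leukocytes both rose in shPax6. Mmp8 (chr9:7558456-7568485, + strand), the neutrophil collagenase, measured 0.45 and 0.64 FPKM in WT PBS, 1.74 and 2.58 in WT NMDA, 0 and 0.04 in shPax6 PBS, 0.59 and 1.27 in shPax6 NMDA, 0.44 and 0.36 in JNK3-KO PBS, and 0.16 and 0.23 in JNK3-KO NMDA. WT NMDA was highest, shPax6 NMDA next, and shPax6 PBS was at or near 0. Mmp8 passed the FPKM limit through WT NMDA alone, so its rise in WT was partly set by that choice. Mmp8 rose in WT (log2 difference 1.80 ± 0.51 SE, adjusted p = 0.0134) and in shPax6 (log2 difference 3.04 ± 0.51 SE, adjusted p = 0.00214), and was at -0.77 ± 0.51 SE, adjusted p = 0.42 in JNK3-KO. WT and JNK3-KO responses differed (log2 difference 2.57 ± 0.73 SE, adjusted p = 0.0153). The WT call was lost without WT PBS replicate 1 (1.59, adjusted p = 0.0617) or WT NMDA replicate 2 (1.53, adjusted p = 0.0663). With a pseudocount of 1 in place of 0.1, the shPax6 value was 0.90, below the fold limit.

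Mmp12 (chr9:7344381-7369499, + strand), the metalloelastase of macrophages, measured 0.71 and 1.12 FPKM in WT PBS, 1.14 and 0.29 in WT NMDA, 0 and 0.40 in shPax6 PBS, 9.48 and 11.96 in shPax6 NMDA, 0.84 and 1.28 in JNK3-KO PBS, and 1.31 and 1.53 in JNK3-KO NMDA. Both shPax6 NMDA libraries lay far above the other 10, which overlapped. Mmp12 rose in shPax6 (log2 difference 5.59 ± 0.76 SE, adjusted p = 0.000632), a size that depends on the pseudocount because shPax6 PBS was listed at 0 and 0.40 FPKM. With a pseudocount of 1 it was 3.30 and still called. The log2 difference was -0.52 in WT (adjusted p = 0.589) and 0.41 in JNK3-KO (adjusted p = 0.816), and WT differed from shPax6 (log2 difference -6.10 ± 1.07 SE, adjusted p = 0.0014). In shPax6 NMDA, 66.5% of the level came from transcript Mmp12-203 and 22.1% from Mmp12-202, whose windows are printed above.

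The sum of the monocyte and macrophage markers was also highest in shPax6 NMDA. The 5 markers Ccr2, Ly6c2, Lyz2, Cd68 and Ms4a7 summed to 355 to 356 FPKM there, 201 to 202 in WT NMDA, 80.1 to 81.0 in JNK3-KO NMDA, and 45.6 to 46.7 in shPax6 PBS. Lyz2 made up most of the sum in shPax6 NMDA, at 252 and 250 FPKM. Ccr2 was not highest there, at 4.03 and 4.58 FPKM against 4.61 and 4.74 in WT PBS and 6.35 and 6.16 in JNK3-KO PBS. All 5 markers rose in shPax6 after NMDA. Of the 5 microglia markers C1qa alone rose there (log2 difference 1.64 ± 0.11 SE, adjusted p = 8.15e-06), while Tmem119, P2ry12, Csf1r and Cx3cr1 lay between 0.04 and 0.57 on the log2 scale and did not pass the test. The 5 markers of fibroblasts of sclera and choroid summed to 20.1 to 22.6 FPKM in shPax6 NMDA and at most 5.05 in the other libraries. Of these, Col1a1, Col1a2 and Dcn rose in shPax6, while Pdgfra was at 0.18 by limma (adjusted p = 0.78). Markers of the retinal pigment epithelium summed to 3.52 to 6.17 FPKM in shPax6 NMDA against 34.9 to 68.8 elsewhere. The part of these cells in the response of Mmp12 and of the other members that rose in shPax6 was not tested.

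**Figure D3:**
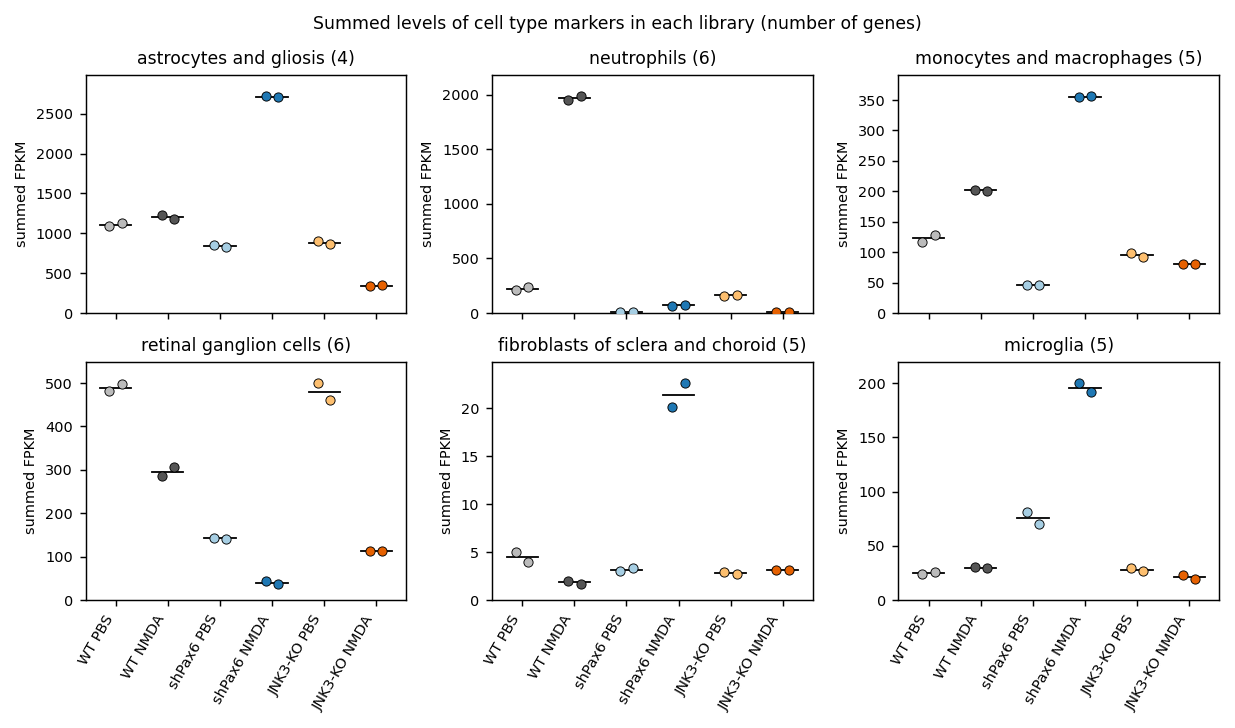
Summed FPKM of the markers of 6 cell types in each library, with the number of genes in brackets, points for libraries and bars for the group mean. The neutrophil sum, mostly S100a8 and S100a9, was highest in WT NMDA (1948 to 1985 FPKM), whereas the sums of gliosis, macrophage, microglia (mostly C1qa) and fibroblast markers were highest in shPax6 NMDA.

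Membrane-type MMPs, which cut matrix at the cell surface, moved in both directions. Mmp14, an activator of MMP2 on migrating and vascular cells, measured 13.2 and 15.2 FPKM in WT PBS, 19.0 and 18.8 in WT NMDA, 9.12 and 8.14 in shPax6 PBS, 18.6 and 22.6 in shPax6 NMDA, 11.4 and 12.2 in JNK3-KO PBS, and 15.2 and 14.5 in JNK3-KO NMDA. In each genotype the NMDA libraries lay above the PBS libraries. Mmp14 rose in shPax6 (log2 difference 1.24 ± 0.12 SE, adjusted p = 0.000103) and was at 0.41 in WT (adjusted p = 0.0165) and 0.33 in JNK3-KO (adjusted p = 0.138). The shPax6 value was called under every setting tried, and WT minus shPax6 was -0.83 (adjusted p = 0.00375), within the fold limit.

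Mmp17 and Mmp24 went the other way. Mmp17, a form anchored to the membrane by a lipid, measured 4.00 and 3.65 FPKM in WT PBS, 2.07 and 1.3 in WT NMDA, 2.97 and 3.02 in shPax6 PBS, 1.36 and 0.98 in shPax6 NMDA, 3.02 and 3.00 in JNK3-KO PBS, and 1.20 and 1.11 in JNK3-KO NMDA. Every NMDA library lay below every PBS library of all genotypes. Mmp17 fell in WT (log2 difference -1.17 ± 0.27 SE, adjusted p = 0.00446), in shPax6 (log2 difference -1.30 ± 0.27 SE, adjusted p = 0.00626) and in JNK3-KO (log2 difference -1.31 ± 0.27 SE, adjusted p = 0.0169). The JNK3-KO call was lost when any 1 of the 4 JNK3-KO libraries was left out (values -1.26 to -1.36, adjusted p = 0.0847 to 0.114), and the WT call without WT NMDA replicate 2 (-0.85). The WT value was 0.09 after the length correction. Mmp24, a neuronal membrane-type MMP that cuts N-cadherin, measured 8.19 and 7.57 FPKM in WT PBS, 3.52 and 3.81 in WT NMDA, 3.19 and 3.85 in shPax6 PBS, 2.66 and 1.97 in shPax6 NMDA, 7.47 and 7.16 in JNK3-KO PBS, and 4.21 and 4.57 in JNK3-KO NMDA. It fell in WT (log2 difference -1.08 ± 0.19 SE, adjusted p = 0.000751), with log2 differences of -0.59 in shPax6 (adjusted p = 0.0389) and -0.72 in JNK3-KO (adjusted p = 0.0395), both within the fold limit. WT PBS and JNK3-KO PBS were the highest groups for Mmp24.

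Mmp11, or stromelysin-3, an enzyme of remodelling stroma, measured 1.75 and 2.40 FPKM in WT PBS, 10.2 and 4.99 in WT NMDA, 4.43 and 1.36 in shPax6 PBS, 4.71 and 3.44 in shPax6 NMDA, 1.89 and 2.81 in JNK3-KO PBS, and 3.33 and 3.59 in JNK3-KO NMDA. It rose in WT (log2 difference 1.75 ± 0.52 SE, adjusted p = 0.0162), but one WT NMDA library was about at the level of shPax6 libraries, and the call was lost without WT PBS replicate 1 (1.53, adjusted p = 0.101) or WT NMDA replicate 1 (1.24, adjusted p = 0.13).

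Of the ADAM proteases that shed membrane proteins, 3 changed in WT and 1 in shPax6. Adam10, the sheddase of Notch and of the amyloid precursor, measured 12.7 and 12.8 FPKM in WT PBS, 3.49 and 3.83 in WT NMDA, 15.3 and 15.6 in shPax6 PBS, 16.2 and 15.4 in shPax6 NMDA, 12.5 and 12.9 in JNK3-KO PBS, and 13.6 and 14.9 in JNK3-KO NMDA. WT NMDA alone was low, with the other 10 libraries between 12.5 and 16.2 FPKM. Adam10 fell in WT (log2 difference -1.77 ± 0.10 SE, adjusted p = 7.22e-07), and was at 0.03 in shPax6 (adjusted p = 0.859) and 0.17 in JNK3-KO (adjusted p = 0.365). The difference between responses was -1.80 ± 0.14 SE, adjusted p = 1.61e-05 for WT minus shPax6 and -1.94 ± 0.14 SE, adjusted p = 6.22e-06 for WT minus JNK3-KO. After the length correction the WT value was -0.90, which no longer passed the fold limit.

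Adam9, whose loss causes cone-rod dystrophy, had the same pattern in smaller size. It measured 44.4 and 45.6 FPKM in WT PBS, 22.6 and 21.6 in WT NMDA, 52.1 and 52.7 in shPax6 PBS, 58.8 and 49.8 in shPax6 NMDA, 41.2 and 42.0 in JNK3-KO PBS, and 51.5 and 48.9 in JNK3-KO NMDA. WT NMDA was again the lowest group and the others overlapped in part. Adam9 fell in WT (log2 difference -1.02 ± 0.08 SE, adjusted p = 5.87e-06), and without WT NMDA replicate 2 the value was -0.99, just within the fold limit.

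Adam15, a cell-surface protease of endothelium and leukocytes, measured 20.6 and 23.0 FPKM in WT PBS, 61.4 and 65.6 in WT NMDA, 13.0 and 16.7 in shPax6 PBS, 22.7 and 23.9 in shPax6 NMDA, 28.3 and 25.5 in JNK3-KO PBS, and 19.4 and 20.3 in JNK3-KO NMDA. The WT NMDA libraries stood far above all others. Adam15 rose in WT (log2 difference 1.54 ± 0.12 SE, adjusted p = 5.41e-06), and was at 0.66 in shPax6 (adjusted p = 0.0036) and -0.43 in JNK3-KO (adjusted p = 0.0567). This call rested on short transcripts without a coding sequence, as described below.

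Adam8, a sheddase of neutrophils, macrophages and activated microglia, measured 3.20 and 4.01 FPKM in WT PBS, 6.63 and 7.09 in WT NMDA, 1.28 and 2.14 in shPax6 PBS, 9.14 and 11.7 in shPax6 NMDA, 3.54 and 6.19 in JNK3-KO PBS, and 4.06 and 4.84 in JNK3-KO NMDA. The shPax6 NMDA libraries were highest and shPax6 PBS lowest, without overlap with other groups. Adam8 rose in shPax6 (log2 difference 2.57 ± 0.31 SE, adjusted p = 0.000322). In WT it was at 0.92 ± 0.31 SE, adjusted p = 0.0292, within the fold limit, and at 1.26 after the length correction, which passed it. WT differed from shPax6 (log2 difference -1.65 ± 0.44 SE, adjusted p = 0.0122), a call lost without WT PBS replicate 2 (-1.50, adjusted p = 0.0525) or shPax6 NMDA replicate 2 (-1.48, adjusted p = 0.052).

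The neural ADAMs without a catalytic site, Adam11, Adam22 and Adam23, all fell in WT. None of these calls remained after the length correction. Of them, Adam22 alone remained when only coding transcripts were summed, a setting described below. Adam22, the synaptic receptor of LGI1, measured 13.9 and 13.9 FPKM in WT PBS, 2.41 and 3.45 in WT NMDA, 9.40 and 7.39 in shPax6 PBS, 4.22 and 4.76 in shPax6 NMDA, 8.74 and 9.71 in JNK3-KO PBS, and 8.82 and 6.90 in JNK3-KO NMDA. WT PBS was highest and WT NMDA lowest. Adam22 fell in WT (log2 difference -2.23 ± 0.21 SE, adjusted p = 1.41e-05) and was at -0.88 ± 0.21 SE, adjusted p = 0.0111 in shPax6, within the fold limit. Adam23, the presynaptic LGI1 receptor, measured 18.3 and 18.4 FPKM in WT PBS, 5.78 and 6.44 in WT NMDA, 8.70 and 9.09 in shPax6 PBS, 7.58 and 9.25 in shPax6 NMDA, 12.1 and 12.2 in JNK3-KO PBS, and 14.2 and 12.8 in JNK3-KO NMDA. It fell in WT (log2 difference -1.57 ± 0.12 SE, adjusted p = 5.35e-06), and its level in shPax6 PBS and shPax6 NMDA overlapped. Adam11, the third receptor of this branch, measured 21.5 and 20.2 FPKM in WT PBS, 10.5 and 8.19 in WT NMDA, 10.9 and 7.91 in shPax6 PBS, 13.4 and 13.6 in shPax6 NMDA, 19.3 and 19.8 in JNK3-KO PBS, and 15.4 and 13.5 in JNK3-KO NMDA. It fell in WT (log2 difference -1.16 ± 0.17 SE, adjusted p = 0.000241) and was at 0.54 in shPax6 (adjusted p = 0.0372), and the WT value without WT NMDA replicate 2 was -0.98.

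Ganglion cell markers also fell after NMDA, 4 of 6 in WT, 5 in shPax6 and 4 in JNK3-KO. The 6 markers Rbpms, Pou4f1, Slc17a6, Sncg, Nefl and Thy1 summed to 482 to 498 FPKM in WT PBS and 286 to 307 in WT NMDA, to 141 to 143 and 36.4 to 43.8 in the shPax6 groups, and to 461 to 499.6 and 112 to 114 in the JNK3-KO groups. Among NMDA libraries, Thy1, Sncg and Rbpms were lower in JNK3-KO than in WT, and Nefl, Pou4f1 and Slc17a6 were higher, as were Adam22 and Adam23. The part of ganglion cells in the neural ADAM levels was not tested.

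Adam1a and Adam32, known mainly from the germline, were also expressed. Adam1a, a part of the sperm fertilin complex, measured 11.2 and 11.7 FPKM in WT PBS, 5.32 and 3.99 in WT NMDA, 11.0 and 10.2 in shPax6 PBS, 9.47 and 9.96 in shPax6 NMDA, 11.9 and 10.9 in JNK3-KO PBS, and 11.1 and 11.5 in JNK3-KO NMDA. WT NMDA was low and the other 10 libraries lay between 9.47 and 11.9 FPKM, and Adam1a fell in WT (log2 difference -1.29 ± 0.14 SE, adjusted p = 4.54e-05). Adam32, a testis ADAM, measured 1.19 and 1.45 FPKM in WT PBS, 5.55 and 4.63 in WT NMDA, 0.80 and 1.89 in shPax6 PBS, 1.13 and 1.32 in shPax6 NMDA, 1.12 and 1.42 in JNK3-KO PBS, and 1.01 and 1.01 in JNK3-KO NMDA. It rose in WT (log2 difference 1.87 ± 0.37 SE, adjusted p = 0.00194). Adam32 lies on chromosome 8 on the same strand as Adam9, with 806 bases between the annotated genes, and Adam9 was lowest in the libraries where Adam32 was highest.

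Among the ADAMTS proteases, Adamts3 changed most clearly. Adamts3 (chr5:89677087-89883334, - strand), which trims the amino end of procollagen II and cuts reelin, measured 9.49 and 9.37 FPKM in WT PBS, 1.71 and 2.46 in WT NMDA, 14.6 and 16.1 in shPax6 PBS, 20.6 and 21.7 in shPax6 NMDA, 8.64 and 9.09 in JNK3-KO PBS, and 12.8 and 11.3 in JNK3-KO NMDA. WT NMDA was low, and both shPax6 groups lay above WT PBS and JNK3-KO PBS. Adamts3 fell in WT (log2 difference -2.15 ± 0.16 SE, adjusted p = 4.07e-06). The response in WT was below that in shPax6 (log2 difference -2.61 ± 0.23 SE, adjusted p = 2.9e-05) and below that in JNK3-KO (log2 difference -2.58 ± 0.23 SE, adjusted p = 1.89e-05). These 3 calls held under every setting tried, including the length correction (-1.59 in WT) and coding transcripts alone (-2.19 in WT).

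The proteoglycanases Adamts1, Adamts4 and Adamts5 cut aggrecan and versican. Adamts1 measured 19.5 and 16.8 FPKM in WT PBS, 8.84 and 7.63 in WT NMDA, 11.5 and 9.44 in shPax6 PBS, 13.1 and 17.9 in shPax6 NMDA, 15.3 and 16.6 in JNK3-KO PBS, and 14.2 and 12.8 in JNK3-KO NMDA. Adamts5 measured 5.76 and 5.42 FPKM in WT PBS, 1.99 and 2.21 in WT NMDA, 3.68 and 3.97 in shPax6 PBS, 5.03 and 6.30 in shPax6 NMDA, 3.99 and 4.61 in JNK3-KO PBS, and 3.85 and 3.90 in JNK3-KO NMDA. In both genes WT NMDA was the lowest group, and both fell in WT, Adamts1 (log2 difference -1.13 ± 0.17 SE, adjusted p = 0.000363) and Adamts5 (log2 difference -1.37 ± 0.17 SE, adjusted p = 0.000115). Their values in shPax6 were 0.55 (adjusted p = 0.039) and 0.55 (adjusted p = 0.0424), within the fold limit, and WT differed from shPax6 in both (log2 difference -1.68 ± 0.24 SE, adjusted p = 0.000481 for Adamts1, and -1.92 ± 0.25 SE, adjusted p = 0.000246 for Adamts5). After the length correction the WT value of Adamts5, the member with the longest transcript (10791 bases), was 0.38. Adamts4 measured 1.13 and 1.19 FPKM in WT PBS, 0.38 and 0.60 in WT NMDA, 0.12 and 0.36 in shPax6 PBS, 0.80 and 1.19 in shPax6 NMDA, 0.86 and 1.24 in JNK3-KO PBS, and 0.67 and 0.90 in JNK3-KO NMDA, a low level throughout. It rose in shPax6 (log2 difference 1.76 ± 0.47 SE, adjusted p = 0.021), from libraries below all those of other groups, and was at -1.12 ± 0.47 SE, adjusted p = 0.0677 in WT. The shPax6 call was lost without shPax6 PBS replicate 1 (1.23, adjusted p = 0.0876) or shPax6 NMDA replicate 2 (1.50, adjusted p = 0.0605).

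Adamts7, a protease of cartilage oligomeric matrix protein, measured 0.59 and 0.54 FPKM in WT PBS, 0.81 and 0.74 in WT NMDA, 0.25 and 0.27 in shPax6 PBS, 2.54 and 0.81 in shPax6 NMDA, 0.36 and 0.58 in JNK3-KO PBS, and 0.64 and 0.68 in JNK3-KO NMDA. One shPax6 NMDA library was well above the other, and the other was close to WT NMDA. Adamts7 passed the FPKM limit through shPax6 NMDA alone, so its rise there was partly set by that choice. Adamts7 rose in shPax6 (log2 difference 2.11 ± 0.52 SE, adjusted p = 0.0143), and without shPax6 PBS replicate 1 the adjusted p was 0.0505. Adamts18, a gene linked to inherited eye malformation, measured 1.18 and 1.22 FPKM in WT PBS, 0.09 and 0.16 in WT NMDA, 0.75 and 1.09 in shPax6 PBS, 1.00 and 0.32 in shPax6 NMDA, 1.16 and 1.89 in JNK3-KO PBS, and 1.11 and 1.08 in JNK3-KO NMDA. The WT NMDA libraries lay below all the others. Adamts18 fell in WT (log2 difference -2.55 ± 0.51 SE, adjusted p = 0.00188), and the differences to the other responses, -1.98 ± 0.72 SE, adjusted p = 0.0452 for shPax6 and -2.14 ± 0.72 SE, adjusted p = 0.032 for JNK3-KO, were each lost without any 1 of 6 of the 8 libraries they rest on. Those values ran from -1.29 to -2.21 (adjusted p = 0.0545 to 0.108) for shPax6 and from -1.81 to -2.16 (adjusted p = 0.0717 to 0.102) for JNK3-KO.

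The table of single transcripts showed which annotated forms stood behind the gene levels. For Mmp9, transcript Mmp9-204, a processed transcript of 1125 bases that shares the 3′ end of the gene, was at 0 in both WT PBS libraries. In WT NMDA it reached 13.6 and 17.7 FPKM and made up 63.1% of the gene. The coding transcript Mmp9-201 went from 16.0 and 16.8 FPKM in WT PBS to 9.70 and 8.63 in WT NMDA. Mmp9 summed over coding transcripts alone had a log2 difference of -0.83 in WT (adjusted p = 0.000238), opposite in sign to the gene level, while the fall in JNK3-KO was -1.95 (adjusted p = 2.85e-05).

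Adam15 went the same way. The noncoding Adam15-209 (554 bases) and Adam15-212 (418 bases), both near the 3′ end of the gene, made up 39.3% and 26.2% of the gene in WT NMDA. Its coding transcripts summed to 14.9 and 16.1 FPKM in WT PBS and 12.4 and 9.14 in WT NMDA, a log2 difference of -0.54 (adjusted p = 0.0117) against 1.54 for the gene. In Mmp11, a transcript of 335 bases marked for nonsense-mediated decay, Mmp11-203, was at 0 in both WT PBS libraries and reached 7.69 and 1.71 FPKM in WT NMDA. In Mmp2, the short coding form Mmp2-203 (674 bases) reached 3.08 and 1.40 FPKM in WT NMDA from 0.51 and 0 in WT PBS, whereas the full-length Mmp2-201 was at 1.95 and 1.62 FPKM in WT PBS and 1.96 and 2.06 in WT NMDA. The Adam32 level in WT NMDA came largely from Adam32-204, Adam32-205 and Adam32-206, of 410 to 618 bases at the 3′ end. All of these short forms end at or near the 3′ end of their genes. Summed over coding transcripts, 10 of the 17 calls in WT, 7 of 8 in shPax6 and 4 of 4 in JNK3-KO remained. Adam8 was added in WT, and Mmp11, Mmp19 and Mmp23 (higher) and Mmp16 (lower) in shPax6, which gave 11 calls in each, against 39% of all genes in WT and 13.9% in shPax6. It was a setting chosen after the data were seen and in which Adamts7 and Adamts18 were too low to be tested. The coding levels of Mmp19 and Mmp23 had a mean above 1 FPKM in shPax6 NMDA alone, so their rise there was partly set by the limit.

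**Figure D4:**
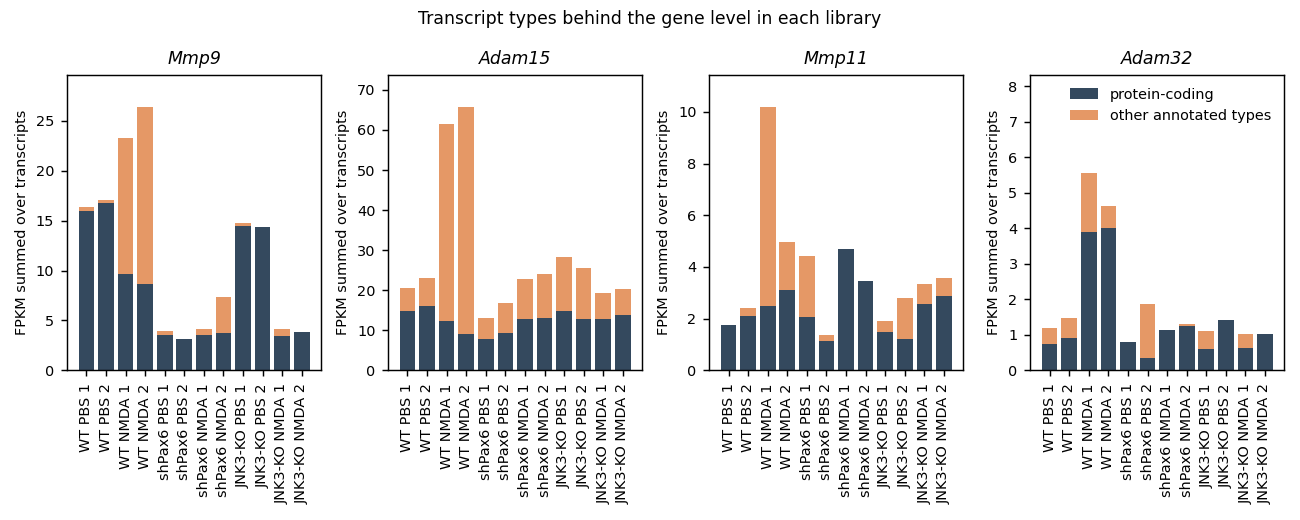
FPKM summed over annotated protein-coding transcripts (dark) and over other transcript types (light) of 4 members in each library. In WT NMDA the other types made up most of Mmp9 and Adam15, and the coding part of both was lower than in WT PBS.

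Responses in WT followed transcript length. Over the 16452 genes with a length, the rank correlation between the WT response and the expressed spliced length was -0.565, and over the 33 members, which share the same libraries, it was -0.755. Both are descriptions across genes, which are not independent replicates. The median WT response of all genes was 1.03 for spliced lengths under 1 kb, 0.53 between 1 and 2 kb, -0.32 between 2 and 4 kb, and -1.17 for longer ones. Members called lower in WT had lengths of 3340 to 10791 bases, and those called higher 1104 to 2425 bases. These lengths were weighted by transcript levels over all 12 libraries, WT NMDA included. A gene that gained short forms in WT NMDA, such as Adam15, was thus counted as shorter. This split and the correlations with length were therefore partly built in. In shPax6 the correlation was -0.173 over all genes and -0.638 over the members, and in JNK3-KO it was 0.229 and -0.059. Once the trend with length over all genes was subtracted, 5 of the 17 WT calls remained (Adam15, Mmp2, Mmp8, Adamts3 and Adamts18) and Timp1 and Adam8 were added, against 18% of all genes called. In shPax6 all 8 calls remained, and in JNK3-KO 3 of 4, without Timp3. Mmp8 and Adamts3 were the calls in WT that remained both after the length correction and with coding transcripts alone. For Mmp8 the second setting changed nothing in its levels, since its 1 listed transcript is coding. Mmp8 also passed the FPKM limit through WT NMDA alone, so its rise there was partly set by the choice of members.

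**Figure D5:**
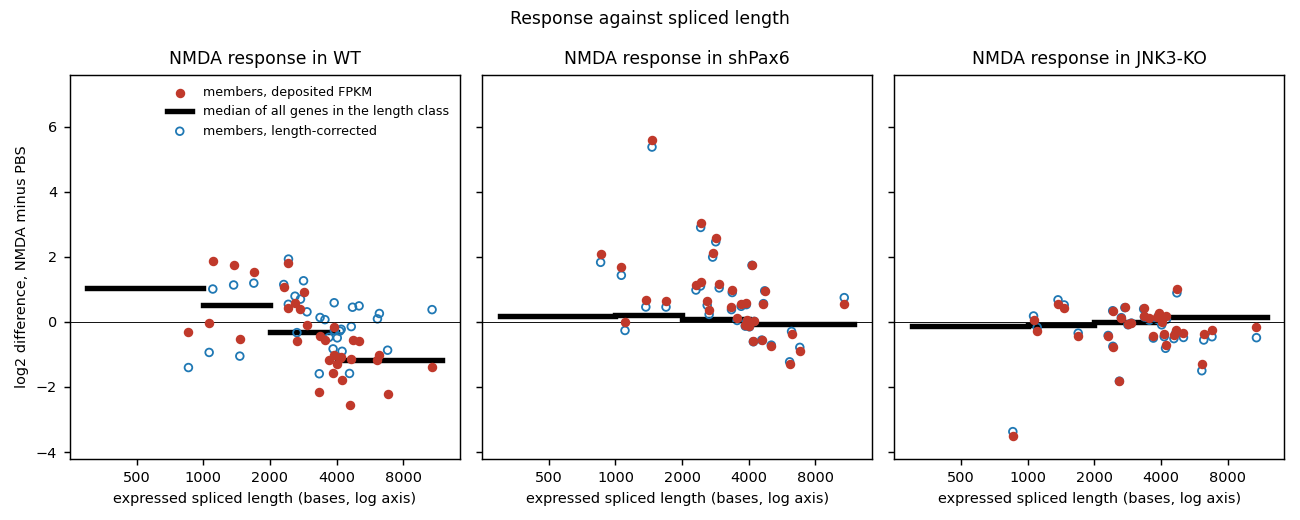
NMDA response of the 33 members against expressed spliced length (log axis) in the 3 genotypes, with filled points for deposited FPKM, open points after subtraction of the trend over all genes, and bars for the median of all genes in a length class. In WT the medians ran from 1.03 under 1 kb to -1.17 above 4 kb. The medians of the members had the same order in the 3 classes from 1 kb upwards, and Timp1, the 1 member under 1 kb, was at -0.32, away from the median of its class.

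The difference between responses was tested next. For WT minus shPax6, 17 members were called, 1 higher and 16 lower (51.5% against 32% of all genes, 10.3% higher and 21.7% lower). For WT minus JNK3-KO, 15 were called, 6 higher and 9 lower (45.5% against 35.6% of all genes, 15.5% higher and 20.1% lower). Both differences contain the WT libraries. Timp1, Mmp8, Mmp9, Mmp2, Adam15 and Adam32 were those with a higher response in WT than in JNK3-KO, and Adam32 the one with a higher response in WT than in shPax6. After the length correction 4 of the 17 remained (Timp1, Mmp12, Adamts3 and Adamts4). The split of the members was then 2 higher and 4 lower, while 18.3% of all genes were called (7.39% higher and 11% lower). Of the 15, 5 remained, and the split was 6 and 1, while 16.8% of all genes were called (7.03% and 9.75%). On TPM the split for WT minus JNK3-KO was 5 and 14, against 6.87% and 32.8% of all genes. After quantile normalization it was 7 and 6, against 13.2% and 17.4% of all genes.

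Under PBS, 8 members were lower in shPax6 than in WT and none was higher, 24.2% of the members against 4.43% of all genes (0.522% higher and 3.9% lower). They were Timp1 (-2.41), Mmp8 (-2.43), Mmp9 (-2.21), Adamts4 (-1.99), Adam11 (-1.16), Mmp24 (-1.15), Adam8 (-1.07) and Adam23 (-1.04), all as log2 differences. The largest in size among those with levels above 10 FPKM were Timp1 (-2.41 ± 0.08 SE, adjusted p = 1.02e-06) and Mmp9 (-2.21 ± 0.23 SE, adjusted p = 0.000347). The same shPax6 PBS libraries are the baseline of the shPax6 response, so the rise of Timp1, Mmp8, Adam8 and Adamts4 there started from a lower level than in WT. In these libraries neutrophil markers summed to 5.16 to 6.09 FPKM against 212 to 235 in WT PBS, and ganglion cell markers to 141 to 143 against 482 to 498, whose part in the differences was not tested. Calls for Adam8, Adamts4, Adam11 and Mmp8 were lost when 1 library was left out, with values down to -0.72, -1.45, -0.93 and -2.22.

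Between JNK3-KO and WT under PBS no member was called by limma, against 0.231% of all genes (0.103% higher and 0.127% lower). At an unadjusted p under 0.05 there were 5 members (15.1% of all genes), Adam15, Adam22, Adam23, Timp1 and Timp3, and the lowest adjusted p was 0.057 for Adam23 (log2 difference -0.59). The median over the members was -0.11.

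Genes that work with the members were counted from lists of known partners, against 35.1% of all genes called in WT, 13.6% in shPax6 and 2.65% in JNK3-KO. Of 8 tested genes of the plasminogen system, which activates several MMPs, 5 rose in WT and 5 in shPax6, and none was called in JNK3-KO. Plaur, the urokinase receptor, measured 0.77 and 1.14 FPKM in WT PBS, 14.2 and 13.9 in WT NMDA, 0.62 and 0.33 in shPax6 PBS, 3.84 and 6.39 in shPax6 NMDA, 1.61 and 1.09 in JNK3-KO PBS, and 2.21 and 3.48 in JNK3-KO NMDA, and rose in WT (log2 difference 3.77 ± 0.38 SE, adjusted p = 2.7e-05). Plaur rose in shPax6 as well (log2 difference 3.18). Plat, the tissue plasminogen activator, had the smallest called value in shPax6, 1.17. The median over the list was 1.50 in WT and 1.66 in shPax6, against -0.09 and 0.10 over all genes.

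Of the 8 LGI ligands and partners of the neural ADAMs, 7 fell in WT, 4 in shPax6 and 1 in JNK3-KO, with medians of -1.83, -0.96 and -0.63. Kcna1, a potassium channel of axons, fell in WT (log2 difference -3.41 ± 0.37 SE, adjusted p = 4.23e-05), as did Cacng2, an auxiliary subunit of AMPA receptors (log2 difference -1.04). Lgi1, the secreted ligand of ADAM22, fell in shPax6 (log2 difference -2.93 ± 0.55 SE, adjusted p = 0.00375) as did Kcna1 (log2 difference -1.22). Lgi1 was also called lower in WT (log2 difference -2.60), and Cacng2 in shPax6 (log2 difference -1.495). In JNK3-KO the one called was Lgi3 (-1.75 ± 0.21 SE, adjusted p = 0.00124).

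The called share of each list of matrix substrates lay below that of all genes in WT and above it in shPax6. Of 8 fibrillar collagens, 2 fell in WT (Col5a1 -1.72 and Col11a1 -1.77) and 4 rose in shPax6, from Col5a1 (1.37) to Col3a1 (4.02). Col3a1 measured 0.22 and 0.72 FPKM in WT PBS, 0.45 and 0.29 in WT NMDA, 0.59 and 0.09 in shPax6 PBS, 5.81 and 5.70 in shPax6 NMDA, 0.34 and 0.18 in JNK3-KO PBS, and 0.68 and 0.47 in JNK3-KO NMDA. It was thus highest in the libraries where the sum of fibroblast markers was highest. The fibroblast list shares Col1a1 and Col1a2 with the collagens. Of 18 basement membrane collagens and laminins, 1 rose and 5 fell in WT (Lama5 1.28, Col4a5 -2.15), 7 rose and 1 fell in shPax6 (Nid1 2.30, Col4a3 -2.67), and 1 rose in JNK3-KO (Col18a1 1.16). Of 16 proteoglycans and glycoproteins, 2 rose and 3 fell in WT (Tnr lowest at -2.09), 6 rose in shPax6 (Fn1 smallest at 1.64) and 1 rose in JNK3-KO. Spp1, or osteopontin, measured 25.1 and 27.0 FPKM in WT PBS, 71.3 and 66.1 in WT NMDA, 10.9 and 12.4 in shPax6 PBS, 168 and 178 in shPax6 NMDA, 34.6 and 30.8 in JNK3-KO PBS, and 84.4 and 84.4 in JNK3-KO NMDA, and rose in all 3 genotypes, with log2 differences of 1.39 in WT, 3.89 in shPax6 and 1.37 in JNK3-KO (adjusted p = 1.36e-06, 3.53e-08 and 4.9e-05).

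Of 22 proteins shed by ADAM10 and ADAM17, 3 rose and 6 fell in WT, 10 rose and 1 fell in shPax6, and 2 rose and 4 fell in JNK3-KO. Tnf, the cytokine released by ADAM17, measured 0.98 and 1.31 FPKM in WT PBS, 3.11 and 1.99 in WT NMDA, 0 and 0 in shPax6 PBS, 1.09 and 1.09 in shPax6 NMDA, 1.02 and 1.07 in JNK3-KO PBS, and 0.18 and 0.38 in JNK3-KO NMDA. It rose in shPax6 (log2 difference 3.57 ± 0.42 SE, adjusted p = 0.000293), from libraries listed at 0, and fell in JNK3-KO (log2 difference -1.64 ± 0.42 SE, adjusted p = 0.0409). Cd44, the hyaluronan receptor, measured 20.4 and 18.8 FPKM in WT PBS, 18.9 and 19.6 in WT NMDA, 9.57 and 7.91 in shPax6 PBS, 46.0 and 43.2 in shPax6 NMDA, 15.6 and 17.1 in JNK3-KO PBS, and 43.5 and 42.9 in JNK3-KO NMDA, and rose in JNK3-KO (log2 difference 1.40 ± 0.10 SE, adjusted p = 0.000106). Cd44 rose in shPax6 as well (log2 difference 2.34). Trem2, a microglial receptor, rose in WT (log2 difference 2.34 ± 0.24 SE, adjusted p = 2.97e-05), and also in shPax6 (1.81) and JNK3-KO (1.04). Efna5 fell in WT (log2 difference -2.47) and Cx3cl1 fell in shPax6 (log2 difference -1.37). Of 12 chaperones and cofactors of the pair, 2 rose and 1 fell in WT (Tspan17 1.20, Tspan10 -1.63), 1 rose and 2 fell in shPax6 (Tspan14 1.28, Tspan10 -3.09), and none was called in JNK3-KO. A further list of 16 tested genes held other inhibitors of matrix proteases together with ADAMTS-like (Adamtsl) genes. Of these, 3 rose and 6 fell in WT (the ADAMTS-like Adamtsl2 1.53, Spock3 -2.53), 4 rose and 5 fell in shPax6 (Wfikkn2 -1.64 the lowest), and none was called in JNK3-KO. The trend with transcript length in WT was measured over all genes and so includes these lists.

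The other 7 members were called in none of the comparisons of gene levels. They were Adam17, the sheddase of TNF, Adam19, Adamts10, Mmp15, Mmp16, Mmp19 and Mmp23, at 0.19 to 11.8 FPKM. Adam17 measured 6.68 and 7.12 FPKM in WT PBS, 6.65 and 5.62 in WT NMDA, 8.23 and 5.96 in shPax6 PBS, 11.8 and 9.27 in shPax6 NMDA, 5.91 and 7.09 in JNK3-KO PBS, and 7.34 and 7.05 in JNK3-KO NMDA, with the shPax6 NMDA libraries above the rest and a response there of 0.57 ± 0.19 SE, adjusted p = 0.0528. Mmp19 and Mmp23 were also highest in shPax6 NMDA, with log2 differences of 1.15 ± 0.43 SE, adjusted p = 0.0737 and 1.68 ± 0.64 SE, adjusted p = 0.0786. Mmp19 passed the FPKM limit through shPax6 NMDA alone, so its rise there was partly set by that choice. With coding transcripts alone, the limma fit called Mmp19 (1.15, adjusted p = 0.0315), Mmp23 (3.17, adjusted p = 0.0462) and Mmp16 (-2.20, adjusted p = 0.0416) in shPax6. The coding level of Mmp23 was at most 0.68 FPKM outside shPax6 NMDA (2.64 and 0.90), so the same limit holds for its call. A p that misses the limit does not show that these levels were equal.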

How the data were processed

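Libraries were made from polyadenylated retinal RNA, with reverse transcription from an oligo-dT primer, and sequenced as paired reads. Per the labels, the authors aligned reads with STAR 2.7.1a to GRCm38.p6 (Ensembl release 101) and quantified them with RSEM 1.3.3, and their notes also name edgeR 3.36.0 and R 4.1.0. The deposited values are FPKM per gene and per transcript with 2 decimals, normalised for length and library. Without read counts in the files, the depth of each library is unknown, and no counting interval is given. The sum of FPKM per library is given in the text.

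Members and gene lists were chosen with earlier results of these data known. Values were fitted as log2(FPKM + 0.1) with limma 3.58.1 (R 4.3.3) in 1 model of 6 group means over 12 libraries (6 residual degrees of freedom), with empirical Bayes moderation and an intensity trend, for genes with a group mean above 1 FPKM (16471 genes, 7 comparisons). P-values were adjusted by Benjamini-Hochberg over all genes tested. Values in every library are given for each TIMP and each called member. Of the lists, the called genes with the largest and smallest difference in each response are named, apart from 1 gene that is not reported here. Expressed spliced length is the mean length of a gene's transcripts weighted by their mean level over all 12 libraries. Lengths came from GENCODE mouse release 21, which also gave coordinates and transcript types. The length correction subtracted a lowess trend (span 0.3) of each library's deviation from the gene mean over all genes. Alternatives are given at the end. Tables were handled with pandas 2.3.3 and numpy 2.4.6 in Python 3.11.15, and figures drawn with matplotlib 3.10.9.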

Additional observations from a re-analysis of the deposited data

Results flagged for a closer look

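The results below were taken up because the response to NMDA in WT differed from that in another genotype by limma's test of the difference itself, with an adjusted p (Benjamini-Hochberg) below 0.05 and a log2 value beyond 1 in size. The values are the WT response minus the other, and each rests on 8 libraries. The rank correlation of these differences with transcript length was -0.425 over all genes and -0.087 over the members against shPax6, and -0.572 and -0.622 against JNK3-KO. After the length correction 4 of the 17 values against shPax6 and 5 of the 15 against JNK3-KO were still called.

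Against shPax6, the inhibitors gave -2.42 for Timp1, -1.42 for Timp2 and -1.49 for Timp3. Mmp12 gave -6.10, and the sum of monocyte and macrophage markers, mostly Lyz2, was highest in shPax6 NMDA. Of the proteolytic ADAMs, Adam8 gave -1.65, Adam9 -1.07 and Adam10 -1.80. The neural ADAMs gave -1.70 for Adam11, -1.35 for Adam22 and -1.49 for Adam23. The germline genes gave -1.17 for Adam1a and 1.89 for Adam32, the positive value of this comparison. The ADAMTS genes gave -1.68 for Adamts1, -2.61 for Adamts3, -2.88 for Adamts4, -1.92 for Adamts5 and -1.98 for Adamts18.

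Against JNK3-KO, Timp1 gave 3.19 and Timp3 -1.56. The MMPs gave 1.53 for Mmp2, 2.57 for Mmp8 and 2.39 for Mmp9. The ADAMs gave -1.29 for Adam9, -1.94 for Adam10, 1.97 for Adam15, -1.99 for Adam22, -1.72 for Adam23, -1.28 for Adam1a and 2.17 for Adam32. The ADAMTS genes gave -2.58 for Adamts3, -1.23 for Adamts5 and -2.14 for Adamts18. The value of Adam15 was -0.48 with coding transcripts alone.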

How the results depend on the processing

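Of the counts of called members, 118 stayed within 1.5 times the reported count and 16 did not. In WT the count of 17 became 7 after the length correction and 11 with protein-coding transcripts alone, a setting chosen after seeing the data. In shPax6 the count of 8 became 5 with a pseudocount of 1, 5 when genes were filtered by their overall mean, 2 with the spread taken from the groups compared alone (Timp1 and Mmp14), and 16 without a limit on the log2 difference. In JNK3-KO the count of 4 became 2 with a pseudocount of 1. After the length correction the counts were 6 for WT minus shPax6 and 7 for WT minus JNK3-KO. The 8 members lower in shPax6 than in WT under PBS became 3 with a pseudocount of 1, 4 after quantile normalization, 4 with the spread of the groups compared alone, and 14 without a limit on the log2 difference. The cause of these shifts was not tested beyond what each setting does by construction.

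Leaving out 1 library gave 13 to 16 called members in WT, 6 to 10 in shPax6, 2 to 3 in JNK3-KO, 15 to 18 for WT minus shPax6, 13 to 15 for WT minus JNK3-KO, 5 to 8 under PBS in shPax6 and 0 in JNK3-KO. The lone library of such a group is assumed to vary like the others. The count of 2 in JNK3-KO came without JNK3-KO PBS replicate 1 and without JNK3-KO NMDA replicate 2, and that of 5 under PBS without WT PBS replicate 2. With the replicate number as a block, the counts were 18 in WT, 9 in shPax6, 4 in JNK3-KO, 16 and 15 for the differences, and 8 and 0 under PBS. Deviations of samples with the same number correlated at -0.097 to 0.086. These values gave no sign that the numbers pair the samples, but with 2 libraries a group they cannot exclude a weak pairing.

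There were 69 calls of a member in a comparison. Direction changed for 6 values: Adam15 with coding transcripts alone (-0.54 in WT, -1.13 for WT minus shPax6, -0.48 for WT minus JNK3-KO), and after the length correction Adamts5 (0.38 in WT, 0.86 for WT minus JNK3-KO) and Mmp17 (0.092 in WT). The Adam15 value for WT minus shPax6 was not called on gene levels and is not among the 69 calls. Other values that were not called, such as Mmp9 in WT, are not counted here. Of the 69 calls, 15 stayed called in every setting tried, among them those of Adamts3. Depth is not known from these values, so its part in the spread of low members was not tested.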
